A study of Thermothelomyces thermophilus with 49 samples.

Results

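The transcript described here is that of MYCTH_2310085, the ortholog of the carbon catabolite repressor Cre1 in *Thermothelomyces thermophilus* (formerly *Myceliophthora thermophila*), a thermophilic fungus that degrades plant biomass. It was taken by its locus tag from the table of read counts, as 1 of 9292 genes and 1 of the 47 orthologs of fungal regulators that the study lists. In the RefSeq annotation of assembly ASM22609v1, the assembly the study mapped to, the gene is protein coding and spans positions 1128452 to 1129982 of chromosome 6, a length of 1531 bases. That table gives gene spans, and exons and untranslated regions were not analysed here. Poly(A) RNA was sequenced from 4 strains in 6 states, with 2 bioreactor cultures per strain. All strains lack *ku80*, a component of non-homologous end joining. They are the parental strain MJK20.3 (*Δku80*), BS7.8 (*Δku80*, *Δclr1*), BS6.4 (*Δku80*, *Δclr2*) and JK2.8 (*Δku80*, *Δclr4*), and each deletion is represented by 1 strain. The states were exponential batch growth on glucose (ex), steady state in a chemostat limited by glucose (SS), and t1, t2, t3 and t4, which were sampled 0.5, 1, 2 and 4 h after a spike of cellulose with the cultures then run as batch. At the spike the glucose feed ended and part of the broth was replaced with glucose-free medium. Cellulose and the end of the feed therefore cannot be told apart, and the response to cellulose below means the change from SS after this step. The study reports that *Δclr1* and *Δclr2* could not use the cellulose and ceased to grow.

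Carbon catabolite repression lets a fungus use glucose first. Cre1, called CreA in *Aspergillus nidulans* and CRE-1 in *Neurospora crassa*, is a zinc finger protein of the C2H2 class that binds promoters of genes for other carbon sources, among them cellulase and hemicellulase genes, and lowers their transcription while glucose is present. In *A. nidulans*, CreB is a deubiquitinase that acts with the WD40 protein CreC, and CreD is an arrestin-like protein with a part in ubiquitination. Clr1 and Clr2 are activators of genes for cellulose degradation, and Clr4, also deleted here, is a regulator of such genes. Transcript levels give no measure of Cre1 protein, its phosphorylation or its place in the cell, which also set its activity.

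The 48 libraries held 2567179 to 22212257 reads counted on genes. The *cre1* transcript had between 315 and 11697 of these reads per library, so counting alone gave the lowest value a relative error of 5.63%. The spread between the 2 cultures of a group (SD over mean) had a median of 6.78% over 24 groups and reached 27.1% in *Δclr1* at t2. Deleted genes were at or near 0 in their own strain, with 0 to 20 reads of *clr1* in *Δclr1*, 0 to 1 of *clr2* in *Δclr2* and 0 to 2 of *clr4* in *Δclr4*. For the parental strain and *Δclr2*, RNA was column-purified, DNase-treated and sequenced at one centre, and libraries of *Δclr1* and *Δclr4* came from another centre without these steps. The centre cannot be told apart from the strain across this split. Levels of *cre1* were therefore compared between strains only within a centre, and across centres only the changes from the steady state of the same strain were compared. Levels are CPM, counts scaled to library size, normalized by TMM, tests are the quasi-likelihood test of edgeR over 8565 genes, and a change was called at a Benjamini-Hochberg adjusted p under 0.05. The p-values rest on a spread between cultures that was estimated for each gene over all 24 groups of 2 cultures. They do not reflect only the spread within the groups compared. The time points of a culture are repeated samples of it.

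In the parental strain, *cre1* was lowest on excess glucose and highest 2 h after the cellulose spike. The 2 cultures stood at 139 and 141 CPM in ex and at 312 and 353 CPM in SS. After the spike the values were 510 and 392 CPM (t1), 635 and 612 CPM (t2), 839 and 804 CPM (t3), then 602 and 535 CPM (t4). The order of the means was ex, SS, t1, t4, t2 and t3, and no neighbours in this order overlapped. The mean at t3 was 822 ± 24.7 CPM (SD, n = 2), 5.87-fold that of ex. All 8 cellulose libraries lay above both libraries of SS.

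In *Δclr4*, the order of the means was ex, SS, t1, t2, t4 and t3, again with no overlap between neighbours. The cultures stood at 186 and 174 CPM in ex, 288 and 322 CPM in SS, 414 and 393 CPM at t1, 473 and 465 CPM at t2, 692 and 604 CPM at t3, and 498 and 524 CPM at t4. The mean at t3 was 3.60-fold that of ex, and all 8 cellulose libraries lay above both libraries of SS.

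In *Δclr1* and *Δclr2*, steady state was the state with the highest *cre1* level after TMM normalization. The cultures of *Δclr1* stood at 164 and 168 CPM in ex, 349 and 341 CPM in SS, 200 and 217 CPM at t1, 205 and 303 CPM at t2, 270 and 338 CPM at t3, and 230 and 266 CPM at t4. Those of *Δclr2* stood at 137 and 178 CPM in ex, 348 and 325 CPM in SS, 233 and 186 CPM at t1, 199 and 173 CPM at t2, 261 and 244 CPM at t3, and 301 and 235 CPM at t4. In each of these strains all 8 cellulose libraries lay below both libraries of SS on this scale. Scaled to library totals alone they did not: *Δclr1* stood at 322 and 395 CPM at t3 against 364 and 348 CPM in SS, and *Δclr2* at 387 and 291 CPM at t4 against 339 and 331 CPM in SS. The order after TMM in *Δclr1* was ex, t1, t4, t2, t3 and SS, where t4 overlapped with t2 and t2 with t3. The order in *Δclr2* was ex, t2, t1, t3, t4 and SS, where ex overlapped with t2, t2 with t1 and t3 with t4.

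**Figure D1:**
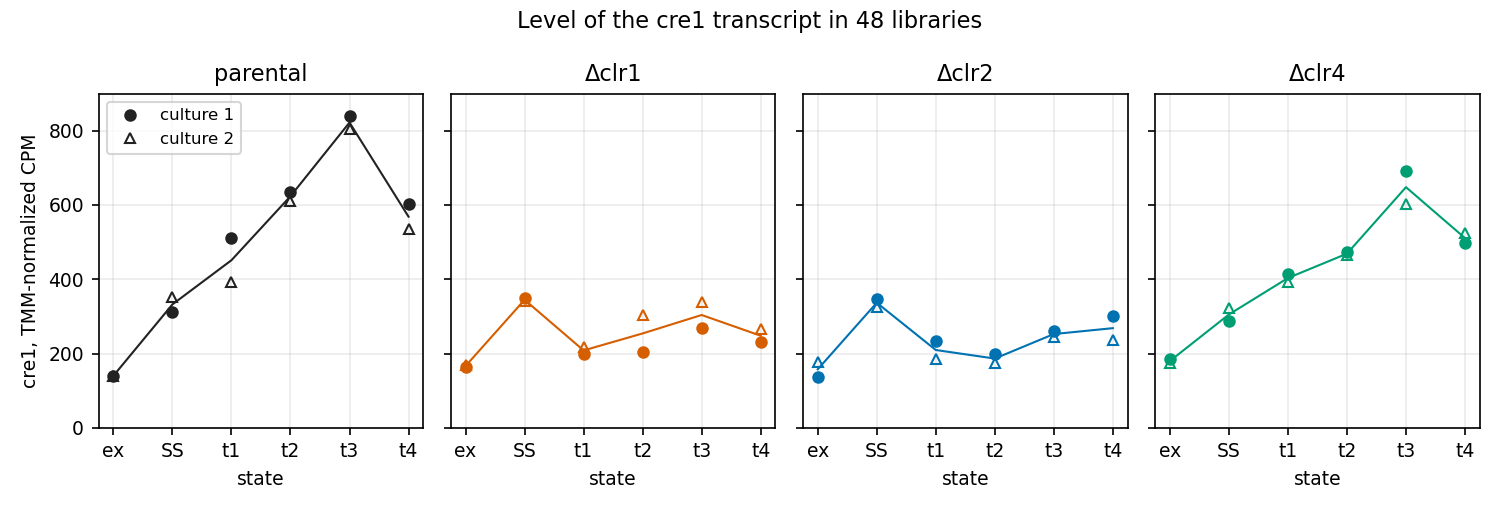
TMM-normalized CPM of *cre1* (y axis, linear from 0) in the 6 states (x axis) of the 4 strains. Filled circles are culture 1, open triangles culture 2, and lines join the means. The parental strain and *Δclr4* peak at t3 with means of 822 and 648 CPM, and *Δclr1* and *Δclr2* have their highest mean in SS with 345 and 337 CPM.

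The comparison of ex with SS sets excess glucose against limitation by the sugar that carbon catabolite repression answers to. These states also differ in batch against chemostat culture, in growth rate and in time in culture. Such differences cannot be told apart from the glucose supply here. In all 4 strains *cre1* was lower in ex than in SS. The change was 2.37-fold in the parental strain (log2 fold change -1.25, SE 0.17, adjusted p = 3.0e-07), where 19.8% of tested genes were called lower. The *Δclr1* value was 2.07-fold (-1.05, SE 0.16, adjusted p = 2.9e-06, against 22.8% of genes called lower) and that of *Δclr2* 2.13-fold (-1.09, SE 0.17, adjusted p = 2.9e-06, against 18.6%). In *Δclr4* it was 1.70-fold (-0.76, SE 0.16, adjusted p = 0.00024, against 22.1%). The share of tested genes with a lower log2 fold change than *cre1* was 12.6% (parental), 13.5% (*Δclr1*), 14.2% (*Δclr2*) and 18.9% (*Δclr4*). Within single cultures the log2 ratio of ex to SS ranged from -1.35 in culture 1 of *Δclr2* to -0.63 in culture 1 of *Δclr4*.

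After cellulose was added, *cre1* rose in the parental strain at every time. Its log2 fold change against SS was 0.44 at t1 (SE 0.16, adjusted p = 0.034), 0.91 at t2 (SE 0.16, adjusted p = 2.6e-05), 1.31 at t3 (SE 0.16, adjusted p = 1.8e-07) and 0.77 at t4 (SE 0.16, adjusted p = 0.00077). These are 1.36-, 1.88-, 2.47- and 1.71-fold changes, and the shares of tested genes called higher were 15.5%, 20.1%, 13.7% and 7.45%. The 4 times share the 2 SS libraries of their strain. The call at t1 was lost without SS replicate 1 (0.35), SS replicate 2 (0.53) or t1 replicate 1 (0.24), and the value was 0.62 without t1 replicate 2. Without all libraries of culture 1 it was 0.11 and not called, and without those of culture 2 it was 0.71. The call at t4 was lost without all libraries of culture 1 (0.58).

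In *Δclr4* it also rose at every time, by 0.40 on the log2 scale at t1 (SE 0.16, adjusted p = 0.045), 0.62 at t2 (SE 0.16, adjusted p = 0.0017), 1.09 at t3 (SE 0.16, adjusted p = 2.2e-06) and 0.74 at t4 (SE 0.16, adjusted p = 0.0010). The folds were 1.32, 1.54, 2.12 and 1.67, with 17.9%, 23.5%, 16.1% and 8.34% of genes called higher. The call at t1 was lost without any 1 of the 4 libraries compared, with values of 0.30 without SS replicate 1, 0.47 without SS replicate 2, 0.36 without t1 replicate 1 and 0.44 without t1 replicate 2. The call at t2 was lost without SS replicate 1 (0.46) and without all libraries of culture 1 (0.53). Both calls were lost with library totals alone (0.27 at t1, 0.32 at t2), and that at t1 also in a fit without the libraries of ex (0.40). Without all libraries of a culture the call at t4 was lost for culture 1 (0.70) and for culture 2 (0.79).

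In *Δclr1* the transcript fell at t1 by 0.73 on the log2 scale (SE 0.16, adjusted p = 0.00031), at t2 by 0.44 (SE 0.16, adjusted p = 0.021) and at t4 by 0.48 (SE 0.16, adjusted p = 0.013). At t3 the log2 fold change was -0.18 (SE 0.16, adjusted p = 0.35) and did not pass the test. The shares of genes called lower at t1, t2 and t4 were 27.7%, 29.6% and 28.5%, and 55.1% were called in either direction at t3. The call at t2 was lost without SS replicate 1 or 2 (-0.46 each) and without t2 replicate 1 (-0.11), and its value was -0.75 without t2 replicate 2. Without all libraries of culture 1 the calls at t2 (-0.19) and t4 (-0.38) were lost, and that at t4 was also lost without t4 replicate 1 (-0.41). DESeq2, the size factors of DESeq2 in edgeR, a fit of *Δclr1* alone and scaling by library totals also ended the call at t2.

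In *Δclr2* the transcript fell at t1 by 0.69 (SE 0.16, adjusted p = 0.00079), at t2 by 0.85 (SE 0.16, adjusted p = 4.2e-05) and at t3 by 0.42 (SE 0.16, adjusted p = 0.032). At t4 the log2 fold change was -0.33 (SE 0.16, adjusted p = 0.095) and did not pass the test. The shares of genes called lower at t1 to t3 were 24.3%, 28.3% and 27.8%, and 47.4% were called in either direction at t4. The call at t3 was lost without any 1 of the 4 libraries compared, with -0.36 without SS replicate 1, -0.47 without SS replicate 2, -0.46 without t3 replicate 1 and -0.37 without t3 replicate 2. It was also lost in DESeq2, with the size factors of DESeq2 and with library totals alone. The call at t1 was lost without all libraries of culture 2 (-0.52).

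**Figure D2:**
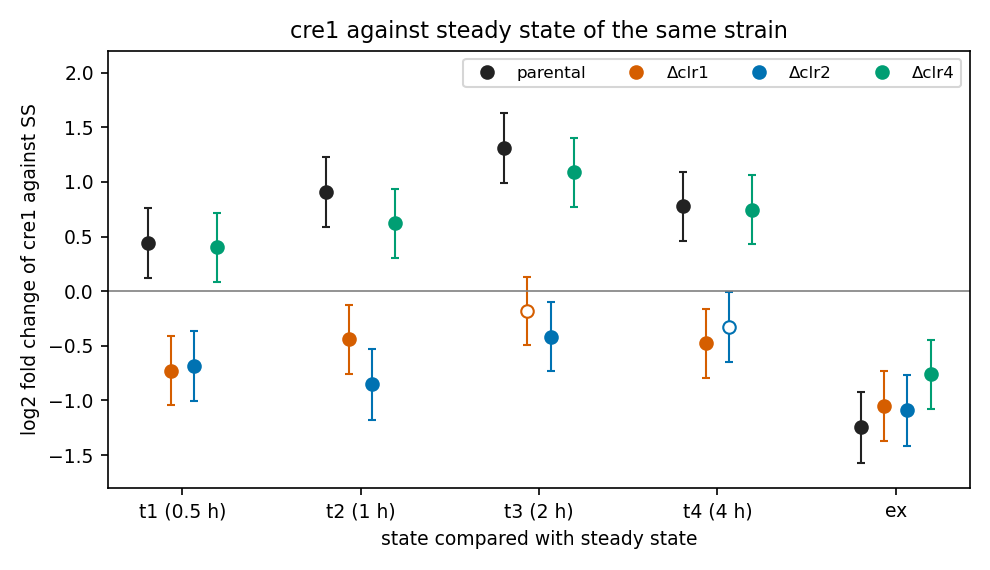
Log2 fold change of *cre1* against SS of the same strain (y axis) at 4 times after cellulose and in ex (x axis). Points are estimates of edgeR from 2 cultures per group, bars approximate 95% intervals from the standard error, and open points have an adjusted p of 0.05 or more. The parental strain and *Δclr4* lie above 0 at all 4 times with maxima of 1.31 and 1.09 at t3, *Δclr1* and *Δclr2* lie below 0, and ex lies below 0 in all strains.

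Over the mean of t1 to t4, *cre1* rose 1.81-fold in the parental strain (log2 fold change 0.86, SE 0.14, adjusted p = 6.2e-06) and 1.64-fold in *Δclr4* (0.71, SE 0.13, adjusted p = 4.4e-05). The shares of genes called higher were 15.3% and 18.2%. It fell 1.37-fold in *Δclr1* (-0.46, SE 0.12, adjusted p = 0.0018, with 33.2% of genes called lower) and 1.49-fold in *Δclr2* (-0.57, SE 0.12, adjusted p = 0.00020, with 30.6%). The share of tested genes with a lower response than *cre1* was 90.9% (parental), 88.1% (*Δclr4*), 30.2% (*Δclr1*) and 25.3% (*Δclr2*). The call in *Δclr1* was lost without all libraries of culture 1 (-0.33). Against ex, the mean of t1 to t4 was higher in all 4 strains, 4.30-fold for the parental strain (log2 fold change 2.10, SE 0.15, adjusted p = 7.9e-14), 2.78-fold for *Δclr4* (1.48, SE 0.14, adjusted p = 5.5e-11), 1.51-fold for *Δclr1* (0.59, SE 0.13, adjusted p = 0.00018) and 1.43-fold for *Δclr2* (0.52, SE 0.13, adjusted p = 0.0010). The shares of genes called higher in that comparison were 30.5%, 33.2%, 36.1% and 34.6% in the same order. The call in *Δclr2* was lost without ex replicate 1 (0.35) and without all libraries of culture 1 (0.24), and its value was 0.87 without those of culture 2.

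The responses of the strains were then compared with each other, since a call in one strain and none in another does not show a difference. Against the parental strain the mean response on the log2 scale was lower by 1.31 in *Δclr1* (SE 0.18, adjusted p = 7.7e-07) and by 1.43 in *Δclr2* (SE 0.18, adjusted p = 4.1e-07), where 21.9% and 18% of genes were called lower. It was also lower than that of *Δclr4*, by 1.17 in *Δclr1* (SE 0.18, adjusted p = 4.7e-06, with 19% of genes called lower) and by 1.28 in *Δclr2* (SE 0.18, adjusted p = 2.2e-06, with 15.4%). Between *Δclr4* and the parental strain the difference was -0.14 (SE 0.18, adjusted p = 0.92), with an approximate 95% interval of -0.50 to 0.21, where 0.0467% of genes were called. Between *Δclr1* and *Δclr2* it was 0.12 (SE 0.18, adjusted p = 0.82), with an interval of -0.24 to 0.47, where 3.92% of genes were called. Both of these pairs cross the sequencing centres, as do *Δclr1* with the parental strain and *Δclr2* with *Δclr4*, while *Δclr2* with the parental strain and *Δclr1* with *Δclr4* lie within a centre.

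By time, the difference of *Δclr1* from the parental strain was -1.17 (t1), -1.35 (t2), -1.49 (t3) and -1.25 (t4) (SE 0.23 each, adjusted p from 6.3e-06 to 0.00021). The shares of genes called lower were 15.7%, 13.8%, 18% and 22%. For *Δclr2* the values in that order were -1.13, -1.76, -1.72 and -1.10 (SE 0.23 each, adjusted p from 7.6e-07 to 0.0013), with 8.02%, 12.4%, 15.3% and 18.6% of genes called lower. The value of *Δclr2* at t1 lost its call without all libraries of parental culture 1 (-0.81), and that at t4 with library totals alone (-0.55, adjusted p = 0.051). For *Δclr4* the differences were -0.04, -0.29, -0.22 and -0.03, with adjusted p of 0.75 or more. In these 4 comparisons 0.0817%, 0.374%, 0.619% and 0% of genes were called by edgeR, and at t4 an unadjusted p under 0.05 was found for 454 genes and DESeq2 called 0.

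**Figure D3:**
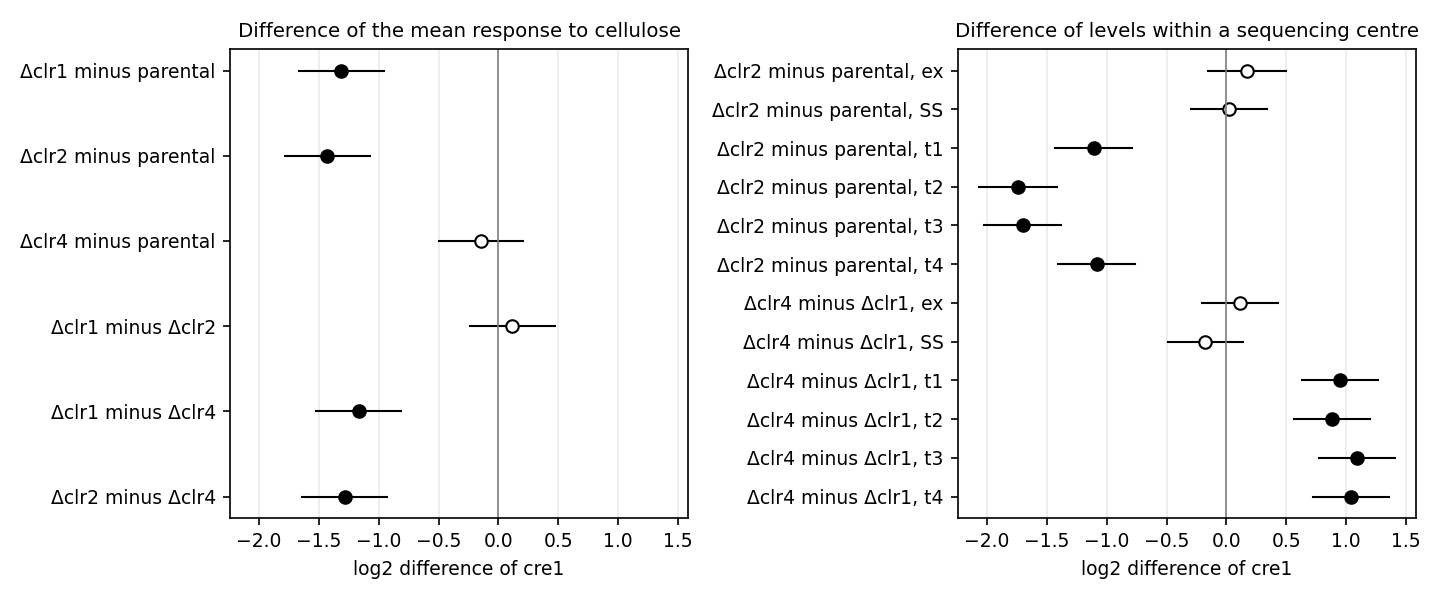
Differences of *cre1* between strains on the log2 scale (x axis), for the mean response to cellulose in 6 pairs of strains (left) and for levels in each state within a sequencing centre (right). Points are estimates of edgeR, bars approximate 95% intervals, and open points have an adjusted p of 0.05 or more. The open points are *Δclr4* against the parental strain (-0.14) and *Δclr1* against *Δclr2* (0.12) on the left, and ex and SS of both pairs on the right.

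Levels within a centre were then compared in each state, and the differences passed the test at all 4 times after the spike and in neither state before it. Between *Δclr2* and the parental strain the log2 difference of *cre1* was 0.18 in ex (SE 0.17, interval -0.15 to 0.50) and 0.02 in SS (SE 0.16, interval -0.30 to 0.34), with an adjusted p of 1 in each. In ex edgeR called 0% of genes (384 had an unadjusted p under 0.05, and DESeq2 called 0), and in SS 0.0934%. After the spike *cre1* was lower in *Δclr2* by 1.11 at t1 (SE 0.16, adjusted p = 5.6e-06), 1.74 at t2 (SE 0.17, adjusted p = 4.0e-10), 1.70 at t3 (SE 0.17, adjusted p = 5.2e-10) and 1.08 at t4 (SE 0.16, adjusted p = 1.5e-06). At t2 this was a 3.35-fold difference, between 624 ± 16.8 CPM in the parental strain and 186 ± 18.3 CPM in *Δclr2* (SD, n = 2). The shares of genes called lower at these times were 16%, 20.7%, 24.3% and 27.1%.

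Between *Δclr4* and *Δclr1*, the log2 difference was 0.11 in ex (SE 0.16, adjusted p = 1, interval -0.20 to 0.43) and -0.18 in SS (SE 0.16, adjusted p = 0.76, interval -0.49 to 0.14), where 0.035% and 0.385% of genes were called. At t1 to t4 *cre1* was higher in *Δclr4* by 0.95, 0.88, 1.09 and 1.04 (SE 0.16 each, adjusted p from 1.7e-06 to 4.6e-05), and the shares of genes called higher were 23%, 18.4%, 19.9% and 27.6%. No library of *Δclr1* at t1 to t4 reached the lowest library of *Δclr4* at the same time.

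From t3 to t4 the parental transcript fell by 0.53 on the log2 scale (SE 0.16, adjusted p = 0.026), where 4.1% of genes were called lower. The log2 fold change was -0.34 in *Δclr4* (SE 0.16, adjusted p = 0.13), -0.29 in *Δclr1* (SE 0.16, adjusted p = 0.34) and 0.09 in *Δclr2* (SE 0.16, adjusted p = 0.81), with 19.6%, 2.46% and 8.91% of genes called in either direction. The parental call was lost without any 1 of the 4 libraries, with -0.50 and -0.56 without t3 replicates 1 and 2 and -0.62 and -0.45 without t4 replicates 1 and 2.

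Per length, *cre1* was among the higher regulator transcripts in every state. In CPM per kilobase of gene span it stood between 91.5 (parental strain in ex) and 537 (parental strain at t3), where the median of the 47 orthologs in the same group was 23.0 and 47.8. Its rank among the 47 lay between 2 and 8. In *Δclr2* the rank was 3 in SS and 8 at t2, and in the parental strain it was 3 in SS and 2 at t3. Gene spans include introns, and these values rest on the annotated span.

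Over t1 to t4 the shares of genes called in either direction, the background for the genes below, were 36.6% (parental), 60.9% (*Δclr1*), 56.7% (*Δclr2*) and 43.9% (*Δclr4*), and for ex against SS 41.9%, 45.9%, 38.4% and 47.8%. CreB (MYCTH_2055311), the deubiquitinase, stood at 27.6 ± 1.05 CPM in ex, 114.6 ± 14.0 CPM in SS and 166 ± 2.29 CPM at t3 in the parental strain (SD, n = 2). It was lower in ex than in SS in all 4 strains, with log2 fold changes of -1.86 (*Δclr2*), -1.94 (*Δclr4*), -2.01 (*Δclr1*) and -2.05 (parental, SE 0.18 to 0.20, adjusted p of 3.3e-09 or less). Over t1 to t4 it rose in the parental strain (0.44, SE 0.15, adjusted p = 0.018), *Δclr2* (0.42, SE 0.15, adjusted p = 0.016) and *Δclr4* (0.55, SE 0.14, adjusted p = 0.0020), and its value in *Δclr1* was -0.20 (SE 0.14, adjusted p = 0.19). With the culture as a replicate block CreB was called lower in *Δclr1* (-0.22, adjusted p = 0.047), and its response there was lower than in *Δclr2* (-0.60, adjusted p = 0.0067), a difference not called without the block (-0.62). Its response in *Δclr1* was lower than in the parental strain by 0.64 (SE 0.20, adjusted p = 0.010), and that in *Δclr2* differed from the parental strain by -0.02 (adjusted p = 0.96). Single SS libraries decided several of these calls of CreB: that in the parental strain was lost without SS replicate 1 (0.32), as was its difference from *Δclr1* (-0.52), and that in *Δclr2* without SS replicate 1 (0.37) or 2 (0.46). With library totals alone the parental call (0.28) and its difference from *Δclr1* (-0.37) were lost.

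CreC (MYCTH_2306444), the WD40 partner of CreB, rose over t1 to t4 in *Δclr1* (0.50, SE 0.09, adjusted p = 2.4e-05), *Δclr2* (0.33, SE 0.10, adjusted p = 0.0036) and *Δclr4* (0.26, SE 0.09, adjusted p = 0.018). Its value in the parental strain was 0.06 (SE 0.09, adjusted p = 0.70), and ex against SS passed the test in no strain (log2 fold changes from -0.08 to 0.12). The calls of CreC were lost in *Δclr2* without SS replicate 2 (0.17) and in *Δclr4* without SS replicate 1 (0.31) or 2 (0.21) and with library totals alone (0.05). CreD (MYCTH_2306452), the arrestin-like protein, passed the test over t1 to t4 in no strain, with values from 0.00 to 0.15. By time it was higher than in SS at t3 in all 4 strains, by 1.05 in *Δclr4*, 0.83 in the parental strain, 0.48 in *Δclr1* and 0.47 in *Δclr2* (adjusted p of 0.011 or less). It was also higher at t4 in *Δclr1* (0.44, adjusted p = 0.012) and *Δclr4* (0.44, adjusted p = 0.034). It was lower at t1 in *Δclr1* (-0.57) and *Δclr4* (-0.55) and at t2 in the parental strain (-0.58). In ex it was higher than in SS in the parental strain (0.66, adjusted p = 0.00079) and *Δclr2* (0.52, adjusted p = 0.0085), the direction opposite to *cre1*. Both calls were lost with library totals alone (0.36 and 0.34), and that in *Δclr2* also without ex replicate 1 (0.46) or SS replicate 2 (0.47), while the block added a call in *Δclr4* (0.32).

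Rce1 (MYCTH_2298696), known as a repressor of cellulase genes in *Trichoderma reesei*, rose over t1 to t4 in *Δclr1* (0.84, SE 0.12, adjusted p = 4.1e-07) and *Δclr2* (0.53, SE 0.12, adjusted p = 0.00044) and fell in *Δclr4* (-0.31, SE 0.11, adjusted p = 0.026). Its value in the parental strain was -0.12 (SE 0.12, adjusted p = 0.46), and its level in *Δclr1* went from 155 ± 14.0 CPM in SS to 344 ± 35.6 CPM at t2 (SD, n = 2). Its response was higher than in the parental strain by 0.97 in *Δclr1* (SE 0.17, adjusted p = 2.4e-05) and by 0.65 in *Δclr2* (SE 0.17, adjusted p = 0.0035), whereas that of *cre1* was lower in both. The call of Rce1 in *Δclr4* was lost without SS replicate 1 (-0.32), SS replicate 2 (-0.32), t2 replicate 1 (-0.26) or t3 replicate 1 (-0.28) and in DESeq2 (-0.26), and its difference of *Δclr2* from the parental strain without parental SS replicate 2 (0.43) or *Δclr2* SS replicate 1 (0.56).

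Xpp1 (MYCTH_2144297), a repressor of xylanase genes in *T. reesei*, rose in the parental strain (0.78, SE 0.17, adjusted p = 0.00040) and in *Δclr4* (0.59, SE 0.16, adjusted p = 0.0028). Its values were -0.24 in *Δclr1* (adjusted p = 0.18) and -0.20 in *Δclr2* (adjusted p = 0.31), and its responses there were lower than in the parental strain by 1.02 and 0.98 (adjusted p = 0.00053 and 0.0015). In ex it was higher than in SS in all 4 strains, by 1.02 to 1.69 on the log2 scale, the direction opposite to *cre1*. GaaX (MYCTH_46981), a repressor of genes for galacturonic acid use in *Aspergillus*, rose in the parental strain (1.14, adjusted p = 1.3e-05), *Δclr4* (0.99, adjusted p = 1.6e-05) and *Δclr1* (0.43, adjusted p = 0.024), and its value in *Δclr2* was 0.21 (adjusted p = 0.35). Ace1 (MYCTH_2028011), a repressor of cellulase and xylanase genes in *T. reesei*, passed the test over t1 to t4 in no strain (-0.13 to 0.27). Ace1, Rce1 and GaaX were lower in ex than in SS in all 4 strains, as *cre1* was, by 0.62 to 0.93 on the log2 scale. Among these values the call over t1 to t4 was lost for Xpp1 in *Δclr4* without SS replicate 1 (0.43), and for GaaX in *Δclr1* without SS replicate 1 (0.48) or 2 (0.35), t3 replicate 1 (0.37) or t4 replicate 2 (0.38).

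**Figure D4:**
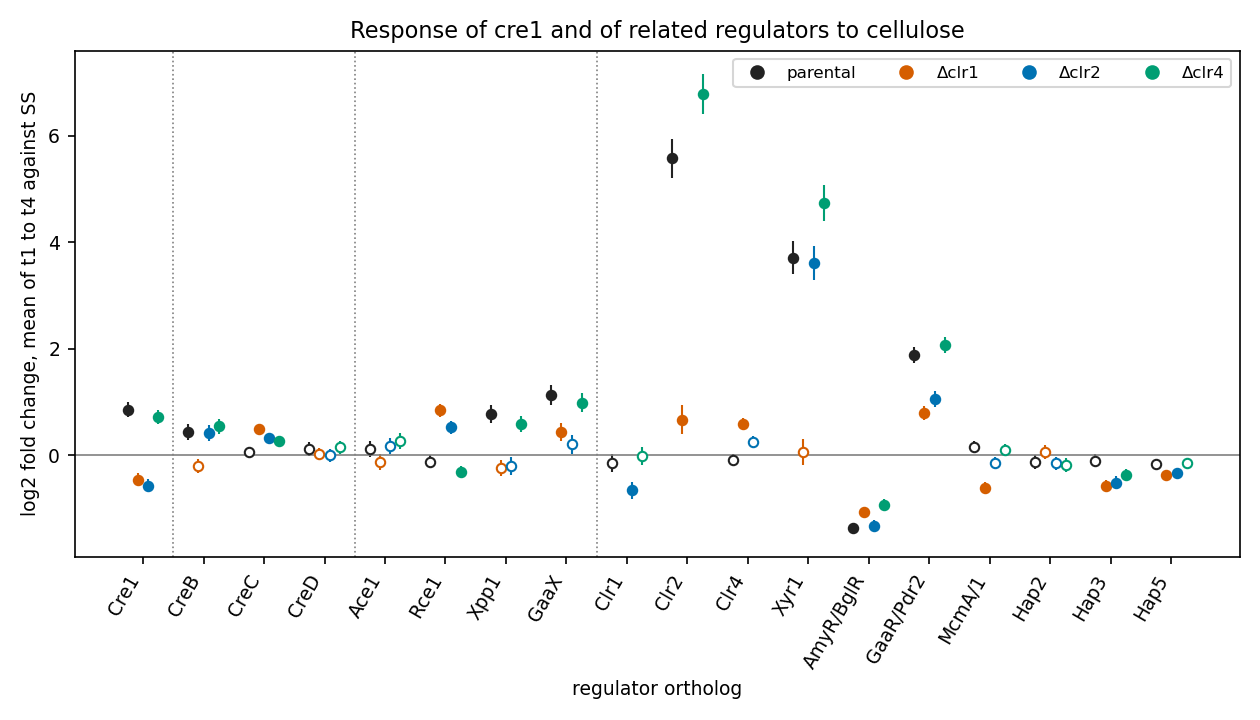
Log2 fold change of the mean of t1 to t4 against SS (y axis) for Cre1, its partners in carbon catabolite repression, other repressors and the other regulators described (x axis, dotted lines between the groups). Points are estimates of edgeR in the 4 strains, bars are standard errors, open points have an adjusted p of 0.05 or more, and deleted genes are left out in their own strain. Cre1 lies above 0 in the parental strain (0.86) and *Δclr4* (0.71) and below 0 in *Δclr1* (-0.46) and *Δclr2* (-0.57).

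Among the other regulators of plant polysaccharide degradation described here, *clr2* and *xyr1* had the largest changes over t1 to t4 in MJK20.3 (parental) and *Δclr4*. Clr2 (MYCTH_38704) rose by 5.57 in the parental strain, 6.79 in *Δclr4* and 0.67 in *Δclr1*. Xyr1 (MYCTH_2310145), an activator of xylanase genes, rose by 3.71 in the parental strain, 3.61 in *Δclr2* and 4.74 in *Δclr4*, and its value in *Δclr1* was 0.07 (adjusted p = 0.83). GaaR/Pdr2 (MYCTH_46266), an activator of pectin degradation, rose in all 4 strains (0.80 to 2.07). In *Δclr2*, *xyr1* rose while *cre1* fell. The call of Clr2 in *Δclr1* was lost without SS replicate 1 (0.54), SS replicate 2 (0.78), t1 replicate 2 (0.50), t3 replicate 1 (0.51) or t4 replicate 1 (0.61).

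AmyR/BglR (MYCTH_2301920), the activator of amylase genes in *Aspergillus*, fell in all 4 strains (-1.37 to -0.93). Clr1 (MYCTH_2298863) fell in *Δclr2* (-0.66) and Clr4 (MYCTH_2296492) rose in *Δclr1* (0.59), and neither passed the test in the other strains that carry the gene. Clr4 in *Δclr2* stood at 0.25, not called, but passed the test with the size factors of DESeq2 (0.31), in DESeq2 (0.31), with library totals alone (0.42) and with the replicate block (0.24). McmA/1 (MYCTH_2132441) fell in *Δclr1* (-0.61), Hap3 (MYCTH_41855) in the 3 deletion strains (-0.57 to -0.37), and Hap5 (MYCTH_67051) in *Δclr1* (-0.37) and *Δclr2* (-0.34). Hap2 (MYCTH_2297059), which like Hap3 and Hap5 is a subunit of the CCAAT-binding complex, passed the test in no strain. With library totals alone Hap2 was called lower in *Δclr4* (-0.39), Hap3 in the parental strain (-0.26) and Hap5 in the parental strain (-0.33) and *Δclr4* (-0.36), while the call of Hap5 in *Δclr2* was lost (-0.16). The call of Hap3 was lost in *Δclr2* without SS replicate 1 (-0.33) and in *Δclr4* without SS replicate 2 (-0.34), and that of Hap5 in *Δclr1* without SS replicate 2 (-0.25).

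Over all 47 regulator orthologs, 17 rose and 3 fell in the parental strain, 19 and 5 in *Δclr4*, 16 and 9 in *Δclr2*, and 21 and 11 in *Δclr1*, and *cre1* is among them in each strain. Of all tested genes, 36.6% (parental), 43.9% (*Δclr4*), 56.7% (*Δclr2*) and 60.9% (*Δclr1*) were called in either direction. Called higher were 15.3% in the parental strain and 18.2% in *Δclr4*, and called lower 30.6% in *Δclr2* and 33.2% in *Δclr1*. In the same order the median log2 fold changes of the orthologs were 0.17, 0.23, 0.06 and 0.07, against -0.06, -0.05, -0.00086 and -0.02 over all tested genes. Higher calls over t1 to t4 in MJK20.3 (parental) and *Δclr4* with lower calls in *Δclr1* and *Δclr2* were found for 81 genes, 0.946% of those tested, and *cre1* was the 1 ortholog of the 47 among them. Of these 81 genes, 13 (0.152% of those tested) were also lower in ex than in SS in all 4 strains, *cre1* included. Of all tested genes, 18.6% (*Δclr2*) to 22.8% (*Δclr1*) were called lower in ex in a single strain. The share lower in all 4 strains was not counted, so whether 13 of 81 exceeds it was not tested.

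The genes whose profile was most like that of *cre1* were named from Pearson r across the 24 group means of log2 CPM, centred on each strain, over 7386 genes whose mean count reached 50. These values describe groups that share libraries and times. The highest were MYCTH_52713 (r = 0.93), MYCTH_2304975 (0.92), MYCTH_2052748 (0.91), MYCTH_2301772 (0.91) and MYCTH_2311589 (0.91), for which the tables used here give no product. Levels were low in some groups: MYCTH_52713 had means of 0.62 to 2.10 CPM in *Δclr2*, and MYCTH_2304975 stood at 0.39 CPM in parental ex. The 5 genes were picked by their likeness to *cre1* over these same groups, so shared calls follow in part from that choice. MYCTH_2301772 and MYCTH_2311589 had the calls of *cre1* over t1 to t4 in every strain. For MYCTH_2301772 the log2 fold changes were 0.46 (parental), 0.77 (*Δclr4*), -0.77 (*Δclr1*) and -0.82 (*Δclr2*), and for MYCTH_2311589 in that order 0.44, 0.38, -0.66 and -0.72. MYCTH_52713, MYCTH_2304975 and MYCTH_2052748 also rose in the parental strain and *Δclr4*, but none of them passed the test in *Δclr2* (-0.59, -0.40 and -0.23). In *Δclr1* MYCTH_52713 fell (-0.84), and MYCTH_2304975 (0.23) and MYCTH_2052748 (-0.11) did not pass the test. The median r over all compared genes was -0.07, and 6 genes exceeded 0.9. Without centring, 2 of these 5 genes were among the 5 highest, and without the exponential state also 2.

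The profiles least like that of *cre1* were those of MYCTH_2300786 (r = -0.91), MYCTH_2299107 (-0.91) and MYCTH_2307600 (-0.90). MYCTH_2299107 fell over the cellulose times in the parental strain (-0.46) and *Δclr4* (-0.44) and rose in *Δclr1* (0.57) and *Δclr2* (0.53), and MYCTH_2300786 had the same calls (-0.68, -0.64, 0.85 and 0.52). MYCTH_2307600 fell in the parental strain (-0.52) and *Δclr4* (-0.52) and passed the test in neither *Δclr1* (0.15) nor *Δclr2* (0.05). All 3 were higher in ex than in SS in all strains. They too were picked from these same groups, so directions opposite to *cre1* follow in part from that choice.

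**Figure D5:**
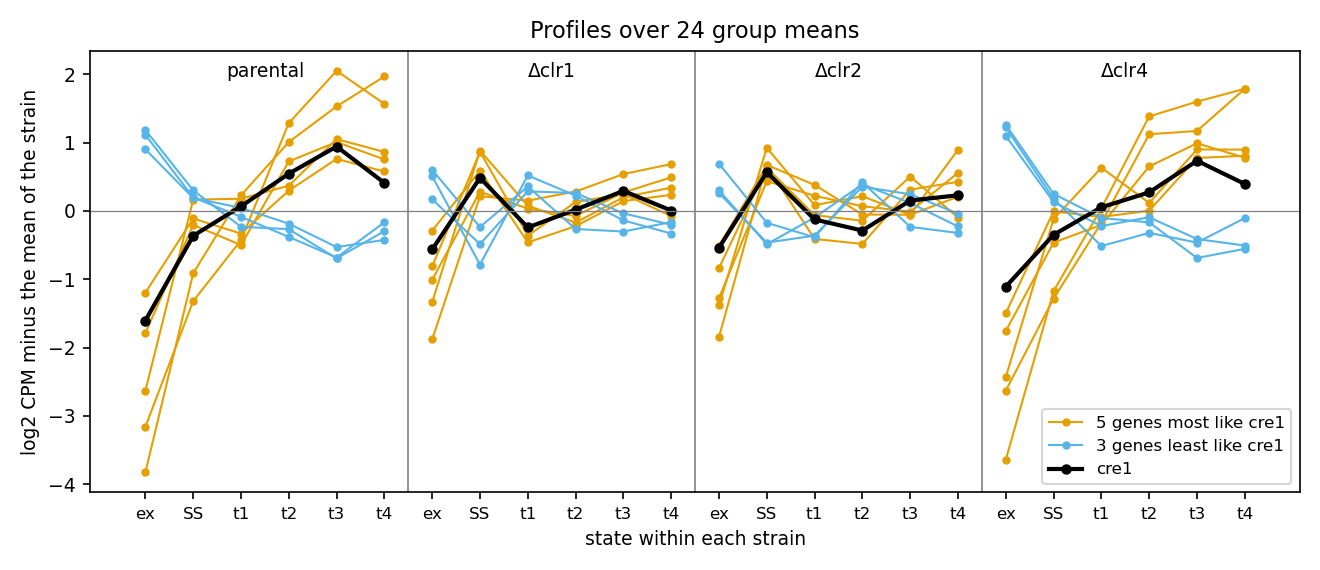
Log2 CPM minus the mean of the strain (y axis) for *cre1* (black), the 5 genes most like it (orange) and the 3 least like it (blue) over the 6 states of each strain (x axis, 24 group means). In the parental strain *cre1* goes from -1.61 in ex to 0.94 at t3, and the orange profiles there are also higher at t3 than in ex. The genes were picked from these same group means.

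Among the regulator orthologs, Res1 (MYCTH_2302052, r = 0.87), VeA/Vel1 (MYCTH_2312657, 0.85) and CreB (0.82) were most like *cre1*, followed by Clr2 (0.80), whose values in *Δclr2* are those of a deleted gene. These values depend on the groups compared: without the exponential state they were 0.64 for Res1 (rank 97 of all compared genes), 0.61 for VeA/Vel1 (rank 145) and 0.48 for CreB (rank 385). VeA/Vel1, a velvet protein that in *A. nidulans* takes part in the control of development and secondary metabolism, rose over t1 to t4 in the parental strain (0.49, adjusted p = 0.0024) and *Δclr4* (0.66, adjusted p = 5.9e-05). Its values in *Δclr1* and *Δclr2* were -0.22 (adjusted p = 0.11) and -0.14 (adjusted p = 0.33). Res1 fell in *Δclr1* (-0.59, adjusted p = 0.0033) and passed the test in no other strain. CreC had an r of 0.24 and CreD of 0.00.

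In the classes of carbohydrate-active enzymes, the members most like *cre1* reached r values as high as those of the regulators. They were the lytic polysaccharide monooxygenase MYCTH_103537 (0.86) and the cellobiohydrolase MYCTH_97137 (0.86) among cellulases, the endoarabinase MYCTH_103032 (0.89) and the mannanase MYCTH_99077 (0.81) among hemicellulases, and the pectin lyases MYCTH_52332 (0.83) and MYCTH_71204 (0.83) among pectinases. Over t1 to t4 in the parental strain these 6 genes rose by 1.37 (endoarabinase) to 8.88 (cellobiohydrolase) on the log2 scale, where *cre1* rose by 0.86. In *Δclr2*, where *cre1* fell, MYCTH_103537 (1.20, adjusted p = 0.0096), MYCTH_97137 (1.58, adjusted p = 0.022) and MYCTH_71204 (1.35, adjusted p = 0.00024) rose, and the others did not pass the test. In *Δclr1* MYCTH_103537 fell (-1.23), and the others did not pass the test. Levels were near 0 for some of them: in *Δclr2* the group means were 0.08 to 0.93 CPM for MYCTH_52332 and 0.17 to 1.04 CPM for MYCTH_99077. Acetyl esterases came next with MYCTH_53698 (0.76) and MYCTH_40885 (0.73), and genes of starch metabolism last with the glycogen debranching enzyme MYCTH_2303065 (0.60) and the alpha-glucosidase MYCTH_2087807 (0.53). MYCTH_53698 was also near 0, with group means of 0.18 to 0.74 CPM in *Δclr2* and 0.30 to 1.47 CPM in *Δclr1*. Over t1 to t4 MYCTH_40885 rose in *Δclr2* (2.01) and fell in *Δclr1* (-0.86). The alpha-glucosidase rose in *Δclr1* (0.72) and *Δclr2* (0.84), where *cre1* fell. The debranching enzyme fell over t1 to t4 in all 4 strains (-2.15 to -1.40), so its likeness to *cre1* does not extend to the direction of the response in the parental strain and *Δclr4*. Without the exponential state r was 0.30 for MYCTH_40885, -0.16 for MYCTH_2303065 and -0.29 for MYCTH_2087807. It was also lower for MYCTH_103537 (0.68), MYCTH_97137 (0.69), MYCTH_103032 (0.65), MYCTH_99077 (0.66), MYCTH_52332 (0.60), MYCTH_71204 (0.49) and MYCTH_53698 (0.61).

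The nearest protein-coding genes to *cre1* on chromosome 6 are MYCTH_2310081, 10708 bases away on the side of lower coordinates, and MYCTH_2310088, 5805 bases away on the other side, with tRNA genes between them and *cre1* on each side. Over t1 to t4, MYCTH_2310081 fell in *Δclr1* (-0.87) and *Δclr2* (-0.95), and its values in the parental strain (0.17, adjusted p = 0.31) and *Δclr4* (0.07, adjusted p = 0.70) did not pass the test. In ex it was lower than in SS in all 4 strains (-1.37 to -0.94), as *cre1* was. MYCTH_2310088 fell in *Δclr1* (-0.68) and *Δclr2* (-0.32) and passed the test in neither of the other strains, and in ex it was higher than in SS in the parental strain (0.93) and *Δclr2* (0.72).

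The genes of actin-like MYCTH_2316610 and tubulin MYCTH_2294321 varied 2.74-fold and 2.54-fold between the lowest and the highest of the 48 libraries, and *cre1* varied 6.14-fold. Actin-like MYCTH_2316610 passed the test over t1 to t4 in no strain (-0.18 to -0.01). By time it was higher than in SS in *Δclr2* at t1 (0.56). It was lower in *Δclr1* and *Δclr2* at t3 (-0.39 and -0.35) and t4 (-0.74 and -0.46). In ex it was higher than in SS in every strain (0.47 to 0.67). Tubulin MYCTH_2294321 fell in *Δclr1* (-0.78), *Δclr2* (-0.66) and *Δclr4* (-0.28), and its part in the values of *cre1* was not tested.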

How the data were processed

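Poly(A) RNA of 2 bioreactor cultures per strain and state was sequenced. Per the authors, read quality was examined with FastQC, trimming was applied where needed, and reads were aligned with STAR to assembly ASM22609v1. The authors deposited whole-number read counts per gene. The counting program and tool versions are not given in the sources used here. One library sequenced on 2 flow cells is 1 column and was counted once. Deposited normalized values and the authors' own comparisons (log2 fold changes, standard errors and p-values) were not used.

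Counts were filtered with filterByExpr (minimum count 10), which kept 8565 of 9292 genes, normalized by TMM and fitted in 1 model of 24 groups with the quasi-likelihood test of edgeR 4.0.16 (limma 3.58.1, R 4.3.3). Intervals are approximate 95% intervals from the standard error, and counting errors cover counting only. The script was tested on simulated data. Alternatives were the size factors and the Wald test of DESeq2 1.42.0, library totals, no filter, the culture as a block, fits without ex or with only the strains compared, and leaving out each library or culture. The replicate number marks 1 bioreactor culture within a strain. Deviations of libraries of the same culture had a median correlation over 15 pairs of 0.04 (parental), 0.22 (*Δclr1*), 0.09 (*Δclr2*) and 0.25 (*Δclr4*).

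Named genes were *cre1*, the other repressors and partners in carbon catabolite repression, the activators except 1 that is not reported here, the annotated neighbours, and those most and least like *cre1* by correlation. The gene and the lists were chosen with earlier results of these data known.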

Additional observations from a re-analysis of the deposited data

Results flagged for a closer look

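The response of *cre1* to cellulose differed between strains by a test of the difference itself. Over the mean of t1 to t4 the log2 difference was -1.31 for *Δclr1* and -1.43 for *Δclr2* against the parental strain, and -1.17 and -1.28 against *Δclr4*. At t1 to t4 it was -1.17, -1.35, -1.49 and -1.25 for *Δclr1* and -1.13, -1.76, -1.72 and -1.10 for *Δclr2* against the parental strain.

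Differences in the mean response also passed the test for CreB in *Δclr1* (-0.64 against the parental strain and -0.75 against *Δclr4*) and for CreC in *Δclr1* against the parental strain (0.44). With library totals alone those of CreB were -0.37 and -0.42 and not called, and that of CreC was lost without parental SS replicate 2 (0.29). For Rce1 they were 0.97 and 0.65 in *Δclr1* and *Δclr2* against the parental strain, and 1.16 and 0.84 against *Δclr4*. For Xpp1 they were -1.02 and -0.98 against the parental strain, and -0.82 and -0.79 against *Δclr4*. With library totals alone the calls against *Δclr4* were lost (-0.49 and -0.39), as they were without *Δclr4* SS replicate 1 (-0.70 and -0.64), and that of *Δclr2* also without *Δclr2* SS replicate 1 (-0.70). For GaaX they were -0.70 and -0.93 against the parental strain, and -0.78 in *Δclr2* against *Δclr4*. With library totals alone all 3 calls of GaaX were lost (-0.43, -0.59 and -0.39), and without parental SS replicate 1 those against the parental strain (-0.48 and -0.71). Without *Δclr1* SS replicate 1 that of *Δclr1* was lost (-0.65), and without SS replicate 2 of *Δclr2* (-0.68) or of *Δclr4* (-0.78) that against *Δclr4*. The sequencing centre cannot be told apart from the strain where *Δclr1* is set against the parental strain or *Δclr2* against *Δclr4*.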

How the results depend on the processing

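Of 62 results for *cre1*, 0 had a call in the opposite direction under any alternative run. Values that were not called did change sign: *Δclr1* at t3 (-0.18) was 0.0089 and *Δclr2* at t4 (-0.33) was 0.015 with library totals alone, *Δclr2* from t3 to t4 ranged from -0.12 to 0.25 and *Δclr4* minus the parental strain (mean) from -0.32 to 0.06 when libraries or cultures were left out. Without leaving out a library, 15 of 412 values changed their side of the threshold. With the size factors of DESeq2 in edgeR these were *Δclr1* at t2 (-0.33) and *Δclr2* at t3 (-0.33), and in the Wald test of DESeq2 the same times (-0.33 in each). With library totals alone they were the parental strain at t1 (0.37), *Δclr1* at t2 (-0.35) and t4 (-0.27), *Δclr2* at t3 (-0.17), *Δclr4* at t1 (0.27) and t2 (0.32), the difference of *Δclr2* from the parental strain at t4 (-0.55), and *Δclr4* from t3 to t4, which was called (-0.44). That scaling moved the median of all genes over t1 to t4 to -0.22 (parental), -0.26 (*Δclr4*), 0.10 (*Δclr1*) and 0.18 (*Δclr2*). Without the exponential state libraries the calls at t1 were lost in the parental strain (0.43) and *Δclr4* (0.40), and in a fit of only *Δclr1* its call at t2 (-0.39).

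Leaving out a library or a culture changed 38 of 624 calls. The ranges of the values were 0.11 to 0.71 (t1) and 0.58 to 0.95 (t4) in the parental strain, -0.75 to -0.11 (t2), -0.62 to -0.38 (t4) and -0.57 to -0.33 (mean) in *Δclr1*, -0.86 to -0.52 (t1) and -0.47 to -0.33 (t3) in *Δclr2*, and 0.29 to 0.52 (t1), 0.46 to 0.71 (t2) and 0.70 to 0.89 (t4) in *Δclr4*. They were 0.24 to 0.87 for *Δclr2* against ex, -0.62 to -0.45 for the parental strain from t3 to t4, and -1.39 to -0.81 for *Δclr2* minus the parental strain at t1. Where this left 1 library in a group, it was assumed to vary like the other groups.

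With the replicate block, which pairs libraries of 1 culture, no call of *cre1* changed, and the mean responses were 0.85 (parental), 0.71 (*Δclr4*), -0.47 (*Δclr1*) and -0.57 (*Δclr2*). With library totals, 7 regulator orthologs in place of 3 were called lower in the parental strain and 10 in place of 5 in *Δclr4*. That scaling also moved the median of all genes down, to -0.22 and -0.26. The share of all genes called lower under it is not given here, so these counts are not a result about the orthologs. The esterase gene MYCTH_53698 in *Δclr1* went from 0.12, not called, to -2.48 without culture 2, and ranged up to 1.14 when other libraries were left out. With 2 cultures per group, differences of *cre1* within the intervals given were not detectable.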
